A study of Mus musculus with 6 samples.

Results

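The neutrophil marker genes are 10 transcripts by which neutrophils are recognised in mixed tissue, namely S100a8, S100a9, Cxcr2, Csf3r, Retnlg, Il1b, Mmp8, Mmp9, Clec4d and Trem1, chosen by gene symbol from a table of 45777 genes. All 10 were in the table and all 10 had enough reads to be tested, with 17 to 961 reads per library. They were followed in whole liver of 10-week-old C57BL/6 mice of 2 genotypes, with 3 libraries in each group. The WT group carried Pak4 alleles flanked by recombination sites (Pak4 flox/flox) and no Cre is named for it. The Pak4_KO group carried the same floxed alleles together with Alb-Cre, which drives Cre recombinase from the albumin promoter and so removes Pak4, the gene of p21-activated kinase 4, in hepatocytes. The albumin promoter is a hepatocyte promoter, and Cre activity in blood cells was not measured here. The comparison asks how the liver transcriptome differs when hepatocytes lack Pak4.

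Neutrophils are short-lived granulocytes made in the bone marrow under the control of granulocyte colony-stimulating factor (G-CSF). They leave the marrow and enter tissue along gradients of CXC chemokines, which they read through CXCR2. In the liver they sit in small numbers in the sinusoids and gather there during injury or infection, where they release stored granule proteins, the calcium-binding S100A8/S100A9 complex and interleukin 1β. Whole-liver RNA mixes all cell types, and some of these transcripts are also made by monocytes and macrophages. Fewer neutrophils, less of a transcript per neutrophil and less of it from other cells cannot be told apart in any value below.

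WT libraries held 39603272 to 52521400 reads and Pak4_KO libraries 42632491 to 48044181. Pak4 stood at 5.93, 7.15 and 6.44 CPM (reads scaled to a common library size, with TMM factors) in WT replicates 1 to 3 and at 1.37, 2.24 and 1.90 CPM in Pak4_KO. The groups did not overlap for Pak4 (log2 fold change -1.82, SE 0.24, edgeR quasi-likelihood test, adjusted p = 0.0169). The liver identity markers Alb, Apoa1, Ttr, Cps1, Ass1 and Hnf4a were abundant in every library. Ly6g, the surface antigen most used to define mouse neutrophils, was near the limit of counting with 6 to 16 reads per library. WT replicate 1 stood apart for the markers: it was the highest of all 6 libraries for 9 of the 10 genes, while WT replicate 3 was the lowest WT library for 9 of the 10.

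The neutrophil markers stood lower in Pak4_KO for 9 of 10 genes, but none passed the test over all 16197 genes at an adjusted p under 0.05 in edgeR. In that test 0.469% of all tested genes were called, 0.204% as lower. Without adjustment, 5 of the 10 were lower at p under 0.05, against 3.69% of all tested genes, and 0 were higher, against 4.51%. For 4 of the 10, S100a8, S100a9, Cxcr2 and Mmp8, every Pak4_KO library lay below every WT library, which held for 6.06% of all tested genes, and the reverse held for 0 of the 10 and for 7.35% of all tested genes. The median log2 fold change of the 10 was -0.72, beside 0.0045 for all tested genes, and 49.3% of all tested genes had a negative value. The 10 genes and the lists below were chosen with earlier results of these data known. The 10 also moved together, WT replicate 1 being the highest library for 9 of them, so these counts are not over independent genes. The DESeq2 Wald test called 2 of the 10 as lower, Cxcr2 (adjusted p = 0.00380) and S100a9 (adjusted p = 0.0208), where it called 334 genes in all, and limma-voom called 0 of the 10. Without WT replicate 1 the median was -0.51, 3 of the 10 were lower at an unadjusted p under 0.05, and S100a9 and S100a8 stood at -0.63 and -0.60.

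**Figure D1:**
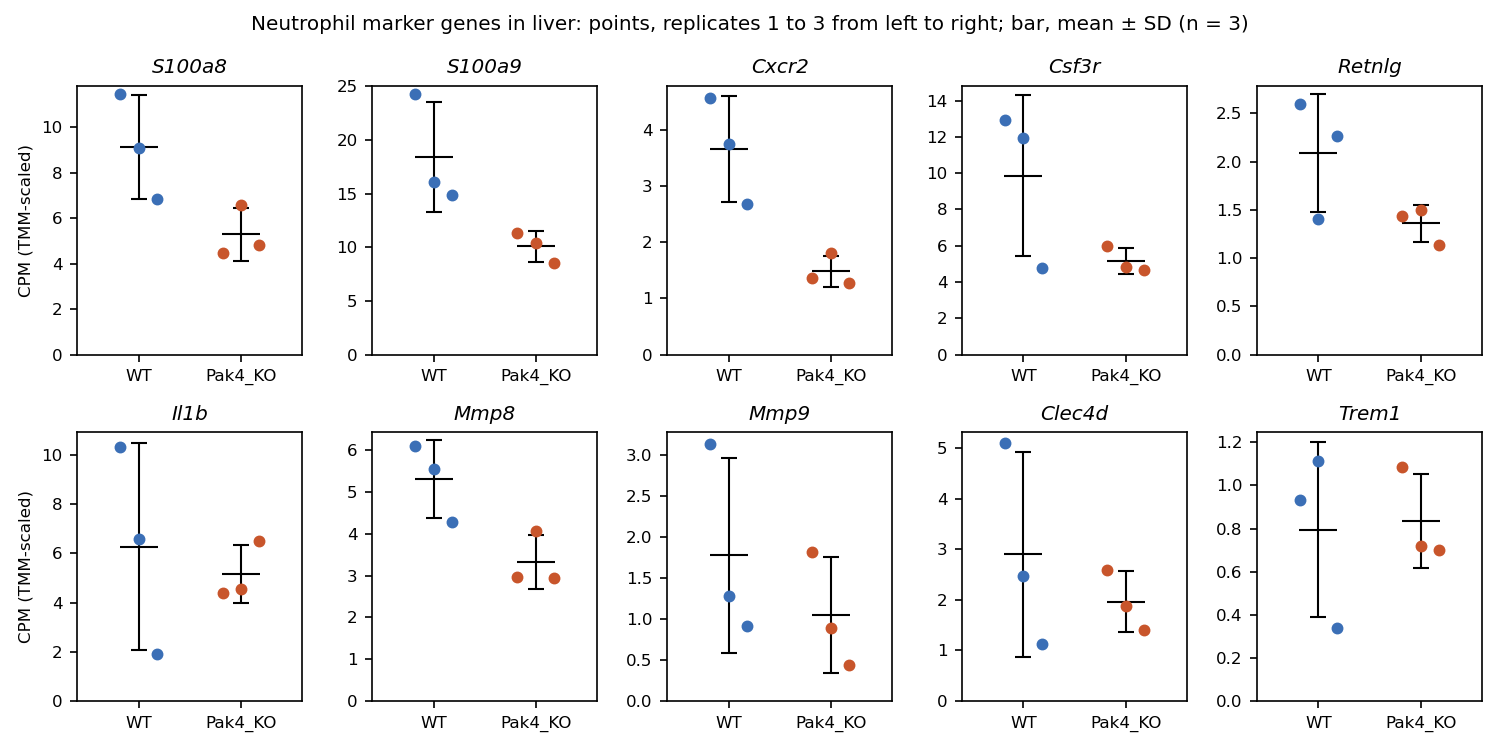
Expression of each of the 10 neutrophil marker genes in CPM (y axis, TMM-scaled, starting at 0) in WT and Pak4_KO liver, with 1 point per library (replicates 1 to 3 from left to right) and a bar for the mean ± SD (n = 3). S100a8, S100a9, Cxcr2 and Mmp8 have no overlap between the groups, and WT replicate 1 is the highest point of 9 of the 10 genes.

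The S100 genes made up most of the signal. S100a8 and S100a9 encode the subunits of calprotectin, the abundant cytosolic calcium- and zinc-binding complex of neutrophils, and lie 22.6 kb apart on chromosome 3 (S100a8 at 90669071 to 90670034 and S100a9 at 90692630 to 90695721, GRCm38.p6) with 0 annotated genes between them. S100a9 stood at 24.3, 16.1 and 14.8 CPM in WT and at 11.4, 10.4 and 8.50 CPM in Pak4_KO. All Pak4_KO libraries were below all WT libraries, and the WT values were pulled apart by replicate 1. The means were 18.4 ± 5.12 and 10.1 ± 1.46 CPM (SD, n = 3 each), which differ by -0.86 on the log2 scale (SE 0.22, 95% interval -1.36 to -0.36, edgeR adjusted p = 0.243). S100a8 stood at 11.5, 9.09 and 6.86 CPM in WT and at 4.46, 6.60 and 4.80 CPM in Pak4_KO. The groups did not overlap, with WT replicate 3 just above Pak4_KO replicate 2. The log2 difference was -0.79 (SE 0.24, 95% interval -1.34 to -0.23, edgeR adjusted p = 0.367).

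Levels were compared between genes in TPM, a unit that accounts for transcript length. S100a9 was the most abundant of the 10 in WT, at 58.0 ± 18.3 TPM (SD, n = 3), followed by S100a8 at 38.5 ± 10.9 TPM. S100a9 exceeded S100a8 in each of the 3 WT libraries, although the 2 ranges overlapped. The ratio of S100a8 to S100a9 in TPM was 0.631, 0.757 and 0.618 in WT and 0.524, 0.846 and 0.755 in Pak4_KO, so the ranges of the ratio overlapped. Together the pair made up 73.4% to 81.8% of the summed TPM of the 10 genes in each library. That sum was 169, 112 and 90.4 TPM in WT and 76.1, 79.2 and 71.6 TPM in Pak4_KO, with no overlap between the groups. Its spread was wider in WT, at 124 ± 40.8 TPM, than in Pak4_KO, at 75.7 ± 3.82 TPM (SD, n = 3 each).

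The other 8 genes were far lower in WT. Il1b stood at 6.99 ± 4.78 TPM, Retnlg at 5.66 ± 1.82, Csf3r at 4.32 ± 2.01, Clec4d at 3.59 ± 2.65 and Mmp8 at 3.56 ± 0.715 TPM (SD, n = 3), and each overlapped with its neighbour in this order. Cxcr2 at 1.98 ± 0.570 TPM was below Mmp8 without overlap, and Mmp9 at 0.893 ± 0.680 and Trem1 at 0.418 ± 0.227 TPM overlapped with the gene above them. In Pak4_KO the first 4 places were the same, and Csf3r moved from the fifth place to the seventh, behind Clec4d and Mmp8.

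The DNA just before the start of the 4 genes whose groups did not overlap is shown to let the reader see what they share in sequence. RefSeq (GRCm38.p6) gave a promoter entry for 9 of the 10 genes, and the 250 bases before the start site were searched on both strands for 3 motifs. GAGGAA, which reads TTCCTC on the other strand, is a form of the site bound by PU.1 and other ETS factors of the myeloid lineage. Other forms of the ETS site were not searched. TTGCNNAA, on the other strand written TTNNGCAA, is a form of the C/EBP site. The TATA box was searched as TATAAA, with TTTATA on the other strand. In the sequences, printed 5′ to 3′ along the gene, capitals mark these matches, and in S100a8 an ETS match and the TATA match touch.
S100a8 (chr3:90668821-90669070, plus strand): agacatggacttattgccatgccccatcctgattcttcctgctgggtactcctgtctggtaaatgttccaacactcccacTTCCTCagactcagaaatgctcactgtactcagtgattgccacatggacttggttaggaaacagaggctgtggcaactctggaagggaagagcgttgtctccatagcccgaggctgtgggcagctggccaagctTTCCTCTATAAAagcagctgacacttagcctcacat
S100a9 (chr3:90695722-90695971, minus strand): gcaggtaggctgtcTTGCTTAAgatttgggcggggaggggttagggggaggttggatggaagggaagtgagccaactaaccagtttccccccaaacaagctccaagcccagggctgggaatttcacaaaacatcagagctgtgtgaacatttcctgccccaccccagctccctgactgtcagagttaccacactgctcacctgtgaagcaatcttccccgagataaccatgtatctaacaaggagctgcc
Cxcr2 (chr1:74153744-74153993, plus strand): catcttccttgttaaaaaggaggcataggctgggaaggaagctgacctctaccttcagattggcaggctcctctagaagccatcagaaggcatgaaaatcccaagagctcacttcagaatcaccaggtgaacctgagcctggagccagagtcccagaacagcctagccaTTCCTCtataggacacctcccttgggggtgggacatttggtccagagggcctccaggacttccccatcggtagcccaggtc
Mmp8 (chr9:7558179-7558428, plus strand): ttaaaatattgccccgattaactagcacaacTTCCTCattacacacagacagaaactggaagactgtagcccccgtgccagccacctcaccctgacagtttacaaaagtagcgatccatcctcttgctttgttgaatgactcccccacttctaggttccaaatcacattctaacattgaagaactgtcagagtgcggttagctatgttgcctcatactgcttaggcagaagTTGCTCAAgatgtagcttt

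The ETS letters were found in 6 of the 9 promoters and in 23.3% of all 32851 promoters of that length. Csf3r and Trem1 are among the 6. The Csf3r window lay inside the span of its own gene, and the Il1b and Trem1 windows ran partly into theirs. The C/EBP letters were found in 3 of the 9, S100a9, Mmp8 and Retnlg, and in 9.56% of all promoters. S100a8 and Il1b held the TATA letters, starting 30 and 31 bases before the start site, as did 12.4% of all promoters at any position. Of the 4 shown, S100a8 had 2 ETS matches, Cxcr2 1 and Mmp8 1, while S100a9 had none of these ETS letters in the window. The matches are a description of the letters, and binding was not measured here.

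The receptors that guide and sustain neutrophils had the 2 most negative log2 fold changes of the 10. Cxcr2, the receptor for the neutrophil chemokines (chromosome 1, 74153994 to 74161246), stood at 4.57, 3.75 and 2.68 CPM in WT and at 1.37, 1.80 and 1.28 CPM in Pak4_KO. Each Pak4_KO library was below each WT library. The means were 3.67 ± 0.945 and 1.48 ± 0.278 CPM (SD, n = 3 each), 2.47-fold lower in Pak4_KO, at a log2 difference of -1.30 (SE 0.28, 95% interval -1.94 to -0.67, edgeR adjusted p = 0.137). Csf3r, the G-CSF receptor (chromosome 4, 126023441 to 126044975), stood at 12.9, 11.9 and 4.77 CPM in WT and at 5.99, 4.85 and 4.64 CPM in Pak4_KO. WT replicates 1 and 2 were high, and WT replicate 3 lay within the Pak4_KO range. The log2 fold change of Csf3r was -0.93 (SE 0.35, edgeR adjusted p = 0.504), and without WT replicate 3 it was -1.27 and passed (adjusted p = 0.0456). In the other 5 fits without 1 library its adjusted p was 0.493 to 0.898. The predicted gene Gm32908 overlaps Csf3r, with 0 to 17 reads per library.

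Secreted granule proteins gave smaller differences. Mmp8, the neutrophil collagenase (chromosome 9, 7558429 to 7568486), stood at 6.11, 5.56 and 4.29 CPM in WT and at 2.97, 4.06 and 2.94 CPM in Pak4_KO. The groups did not overlap, and Pak4_KO replicate 2 came closest to WT. The log2 fold change was -0.68 (SE 0.23, 95% interval -1.20 to -0.15, edgeR adjusted p = 0.441). Mmp9, the gelatinase B of the tertiary granules (chromosome 2, 164940326 to 164955850), stood at 3.13, 1.28 and 0.914 CPM in WT and at 1.82, 0.889 and 0.440 CPM in Pak4_KO. Its groups overlapped widely, and each spanned more than 3-fold within itself. The log2 fold change of Mmp9 was -0.76 (SE 0.60, edgeR adjusted p = 0.831), and it was -0.087 without WT replicate 1. Retnlg, a resistin-like secreted protein of mouse neutrophils (chromosome 16, 48872608 to 48874498), stood at 2.60, 1.41 and 2.27 CPM in WT and at 1.44, 1.5 and 1.14 CPM in Pak4_KO. WT replicate 2 lay within the Pak4_KO range, which separates Retnlg from the other markers, for which WT replicate 3 was the lowest of the WT libraries. The log2 fold change of Retnlg was -0.62 (SE 0.30, edgeR adjusted p = 0.664).

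Genes of inflammatory activation showed no separation of the groups. Il1b encodes the cytokine interleukin 1β, which macrophages and monocytes make as well as neutrophils (chromosome 2, 129364569 to 129371164). It stood at 10.3, 6.59 and 1.91 CPM in WT and at 4.39, 4.55 and 6.5 CPM in Pak4_KO. All 3 Pak4_KO libraries lay inside the WT range, which spanned 5.41-fold. The log2 fold change of Il1b was -0.28 (SE 0.50, 95% interval -1.43 to 0.87, edgeR adjusted p = 0.952), and its sign turned without WT replicate 1 (0.27). The antisense gene Il1bos overlaps Il1b, with 0 to 6 reads per library. Clec4d, a C-type lectin receptor for microbial glycolipids (chromosome 6, 123262107 to 123275268), stood at 5.10, 2.46 and 1.13 CPM in WT and at 2.60, 1.88 and 1.40 CPM in Pak4_KO. Here too all 3 Pak4_KO libraries lay inside the WT range. The log2 fold change of Clec4d was -0.56 (SE 0.50, edgeR adjusted p = 0.861), and it was 0.11 without WT replicate 1. Trem1, a receptor that amplifies inflammatory signals in neutrophils and monocytes (chromosome 17, 48232713 to 48246927), stood at 0.934, 1.12 and 0.338 CPM in WT and at 1.09, 0.720 and 0.700 CPM in Pak4_KO. It was the only one of the 10 with a positive log2 fold change (0.07, SE 0.47, 95% interval -1.0 to 1.15, edgeR adjusted p = 0.995), which turned to -0.30 without WT replicate 3 and to -0.16 without Pak4_KO replicate 1. In the annotation 3 predicted genes overlap Trem1, and by symbol none of them is among the genes with deposited counts.

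**Figure D2:**
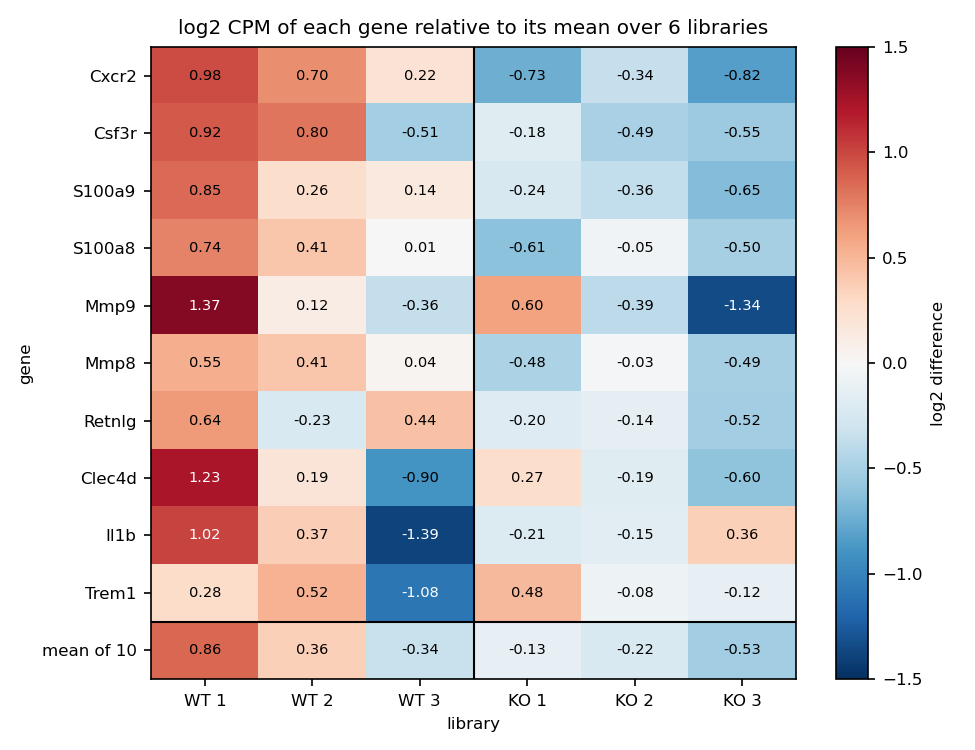
Log2 CPM of each neutrophil marker gene (rows, ordered by log2 fold change, with the mean of the 10 at the bottom) in each library (columns) relative to the gene's own mean over the 6 libraries. The mean row runs from 0.86 in WT replicate 1 to -0.53 in Pak4_KO replicate 3, and WT replicate 3 (-0.34) lies among the Pak4_KO libraries.

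Across libraries the 10 genes fell into patterns that the group means hide. The mean of the 10 on the log2 scale, relative to each gene's mean, was 0.86, 0.36 and -0.34 in WT and -0.13, -0.22 and -0.53 in Pak4_KO, so WT replicate 3 lay between Pak4_KO replicates 2 and 3. In WT replicate 3, Il1b (-1.39), Trem1 (-1.08), Clec4d (-0.90), Csf3r (-0.51) and Mmp9 (-0.36) were below their own means, while Retnlg (0.44), Cxcr2 (0.22), S100a9 (0.14), Mmp8 (0.045) and S100a8 (0.0067) were above theirs. WT was the more variable group for 8 of the 10 genes by coefficient of variation. The highest WT library exceeded the lowest by more than 2-fold for 5 of the 10 genes, and in Pak4_KO this held for 1, Mmp9. The shares of all tested genes with such spreads were not computed, so the wider WT spread cannot be called a trait of the markers.

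Of 20 further neutrophil genes, 16 were tested and 14 of them were negative, at a median of -0.52, or -0.29 without WT replicate 1. None was called over all genes by edgeR or DESeq2, and 4 were lower at an unadjusted p under 0.05, against 3.69% of all tested genes. For 3 (Cd177, Stfa2l1 and Hdc) Pak4_KO lay below WT without overlap, against 6.06% of all tested genes. Asprv1, a skin and neutrophil aspartic protease, had the smallest p, at 1.29, 1.73 and 0.338 CPM in WT against 0.425, 0.423 and 0.300 CPM in Pak4_KO (log2 fold change -1.54, SE 0.57, edgeR adjusted p = 0.510). Il1r2, the decoy receptor for interleukin 1, stood at 11, 10.5 and 3.10 CPM in WT against 3.54, 4.66 and 2.12 CPM in Pak4_KO (-1.25, SE 0.47, adjusted p = 0.517). For both, WT replicate 3 lay within the Pak4_KO range, as it did for Csf3r. The next 3 genes are named after their values were seen. Cd177, a neutrophil surface glycoprotein, differed by -1.32 on the log2 scale (SE 0.53, edgeR adjusted p = 0.560) and Ly6g one of -0.54 (SE 0.53, adjusted p = 0.882). Fpr1, a receptor for bacterial formyl peptides, went the other way, with 7.77 ± 2.98 CPM for WT against 11.3 ± 3.79 CPM for Pak4_KO (SD, n = 3 each; log2 fold change 0.54, SE 0.33, adjusted p = 0.749). Stfa2l1, with 0 to 17 reads per library, belongs to a family of close copies, and reads could be split among them.

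**Figure D3:**
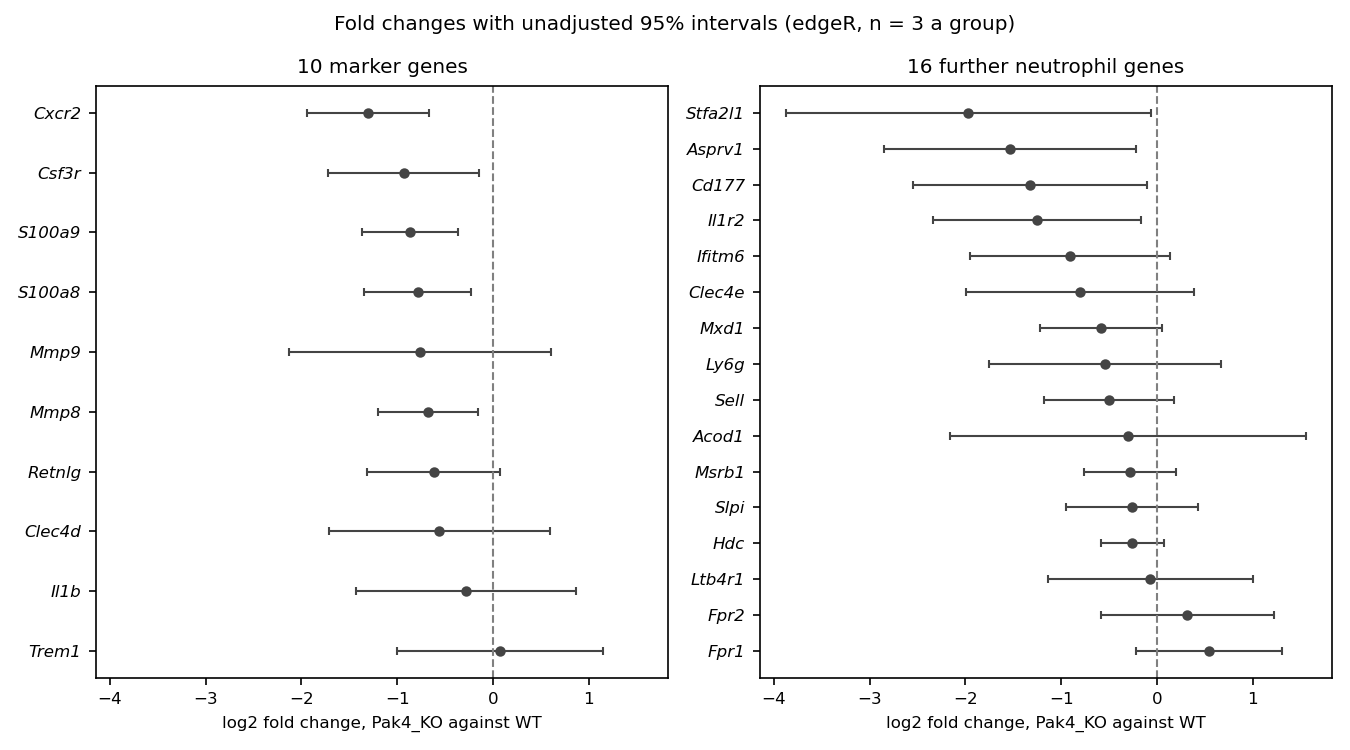
Log2 fold change (x axis, Pak4_KO against WT) with its unadjusted 95% interval for the 10 neutrophil marker genes (left) and for the 16 tested further neutrophil genes (right), edgeR with 3 libraries per group. The left panel runs from -1.30 for Cxcr2 to 0.07 for Trem1, and in the right panel Fpr1 (0.54) and Fpr2 (0.32) lie to the right of 0.

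Among the signals that draw neutrophils, 7 of 9 genes were tested. All 7 had negative values at a median of -0.61, which was -0.17 with limma-voom. The median was -0.14 without WT replicate 1, -0.055 without WT replicate 2 and -0.23 without Pak4_KO replicate 3. In each of these fits without 1 library 9 genes passed the filter, so these medians are not over the same genes. In the edgeR fit of all libraries 1 was lower at an unadjusted p under 0.05, against 3.69% of all tested genes, and 0 were called by edgeR or DESeq2. Cxcl1, a chemokine ligand of CXCR2, stood at 305, 270.4 and 268 CPM in WT and at 215, 171 and 106 CPM in Pak4_KO. Its groups did not overlap (log2 fold change -0.78, SE 0.23, 95% interval -1.31 to -0.24, edgeR adjusted p = 0.349), and WT replicate 3 was not low for Cxcl1. Ppbp, a chemokine carried by platelets, differed by -0.68 on the log2 scale (SE 0.37, edgeR adjusted p = 0.711). Cxcl2 stood at 2.85, 1.94 and 0.0795 CPM in WT against 1.93, 1.55 and 1.06 CPM in Pak4_KO, with overlap, and is named after its values were seen. Among 8 tested chemoattractant receptors other than Cxcr2, 6 were negative with a median of -0.16, and Ccr1, a receptor for CC chemokines, stood at -0.80 (SE 0.34, edgeR adjusted p = 0.583).

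Adhesion genes had 9 of 12 negative with a median of -0.18 and 0 called, and the median was 0.03 without WT replicate 1. Cd177 led, and Sele, the endothelial selectin on which neutrophils roll, differed by -1.29 on the log2 scale (SE 0.64, edgeR adjusted p = 0.667), with 4.06 CPM in WT replicate 1 and 0.400 to 1.04 CPM in the other 5 libraries. G-CSF signalling genes and granulocyte transcription factors other than Csf3r had 8 of 12 negative with a median of -0.06, Jak2 standing at -0.34 (SE 0.17, edgeR adjusted p = 0.664). The subunits of the phagocyte NADPH oxidase, which makes superoxide, had 5 of 6 negative with a median of -0.25, Ncf4 at -0.66 (SE 0.35, edgeR adjusted p = 0.686) and Rac2 at -0.43 (SE 0.24, adjusted p = 0.719). None of these genes was called.

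Of 11 granule protein genes, 5 were tested, 4 of them negative with a median of -0.43. Mpo and Elane, made by marrow precursors, had reads in 1 library each, WT replicate 2, with 24 and 16. Prtn3, another precursor protease, had 56, 279 and 29 reads in WT and 45, 127 and 10 in Pak4_KO (log2 fold change -0.99, SE 0.95, edgeR adjusted p = 0.877). Ltf, lactoferrin, had 87 reads in Pak4_KO replicate 1 and 0 to 16 in the others. These 4 genes are named after their values were seen. Chil3, a chitinase-like protein of neutrophils and some macrophages, stood at 9.67, 12.5 and 2.66 CPM in WT and at 0.708, 1.21 and 1.6 CPM in Pak4_KO. Its groups did not overlap. The difference was -2.81 on the log2 scale (SE 0.56, edgeR adjusted p = 0.108), and DESeq2 called it (adjusted p = 3.92e-06). With 1 library left out, edgeR called Chil3 without WT replicate 3 (-3.23, adjusted p = 0.00916) and in none of the other 5 fits (adjusted p = 0.212 to 0.377). Lcn2, a siderophore-binding protein that hepatocytes also secrete, differed by -0.43 on the log2 scale (SE 0.18, edgeR adjusted p = 0.586).

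Genes related to the markers by family or pathway were compared next. The list of S100 genes and their receptors held 9 tested genes other than S100a8 and S100a9, with a median of -0.10. For 4 of the 9, Pak4_KO lay below WT without overlap, against 6.06% of all tested genes. S100a4, expressed in many motile cells, stood at 5.17, 3.24 and 1.87 CPM in WT and at 1.18, 1.65 and 1.04 CPM in Pak4_KO (log2 fold change -1.40, SE 0.39, edgeR adjusted p = 0.285), and DESeq2 called it as lower (adjusted p = 0.0379). S100a10, the annexin A2 partner, was named after its values were seen, with 231 ± 58.2 CPM for WT against 128 ± 37.9 CPM for Pak4_KO (SD, n = 3 each; -0.86, SE 0.26, adjusted p = 0.359). S100a11, on 7 to 21 reads per library, and S100a6 were the other 2 without overlap. Retn, Retnla and Retnlb, the relatives of Retnlg, had 0 to 3 reads per library.

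In the list of metalloproteinases and their inhibitors, 3 of the 11 tested genes other than Mmp8 and Mmp9 were negative, with a median of 0.34, and 0 were called by edgeR. Mmp7, matrilysin, an epithelial protease, stood at 0.404, 0.210 and 0.179 CPM in WT and at 1.39, 1.21 and 1.64 CPM in Pak4_KO (log2 fold change 2.43, SE 0.40, edgeR adjusted p = 0.0528), and DESeq2 called it (adjusted p = 0.000146). Timp1, an inhibitor of these enzymes, differed by -1.47 on the log2 scale (SE 0.49, edgeR adjusted p = 0.439).

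For the lectin and TREM receptors and their adaptors, 10 of 12 tested genes other than Clec4d and Trem1 were negative with a median of -0.20, and DESeq2 called 1 of the list as lower. The median of the whole list, also -0.20, was 0.042 without WT replicate 1. Clec7a, the β-glucan receptor Dectin-1, stood at 5.50, 4.84 and 5.33 CPM in WT and at 3.33, 3.34 and 3.02 CPM in Pak4_KO, with a tight spread in each group and no overlap (log2 fold change -0.69, SE 0.18, edgeR adjusted p = 0.255). Treml2 differed by -1.22 on the log2 scale (SE 0.41, edgeR adjusted p = 0.450), also without overlap. Clec4e, the neighbour of Clec4d 6.5 kb away and its partner receptor, is named after its values were seen. It stood at 9.69, 5.41 and 2.07 CPM in WT and at 4.70, 3.11 and 2.02 CPM in Pak4_KO. Its ranking of WT libraries was that of Clec4d and of most of the 10 markers. In the interleukin 1 pathway other than Il1b, 7 of 13 genes were negative with a median of -0.04, Il1r2 and Gsdmd, the pore-forming gasdermin D (-0.47, SE 0.18, edgeR adjusted p = 0.538), having the smallest p.

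**Figure D4:**
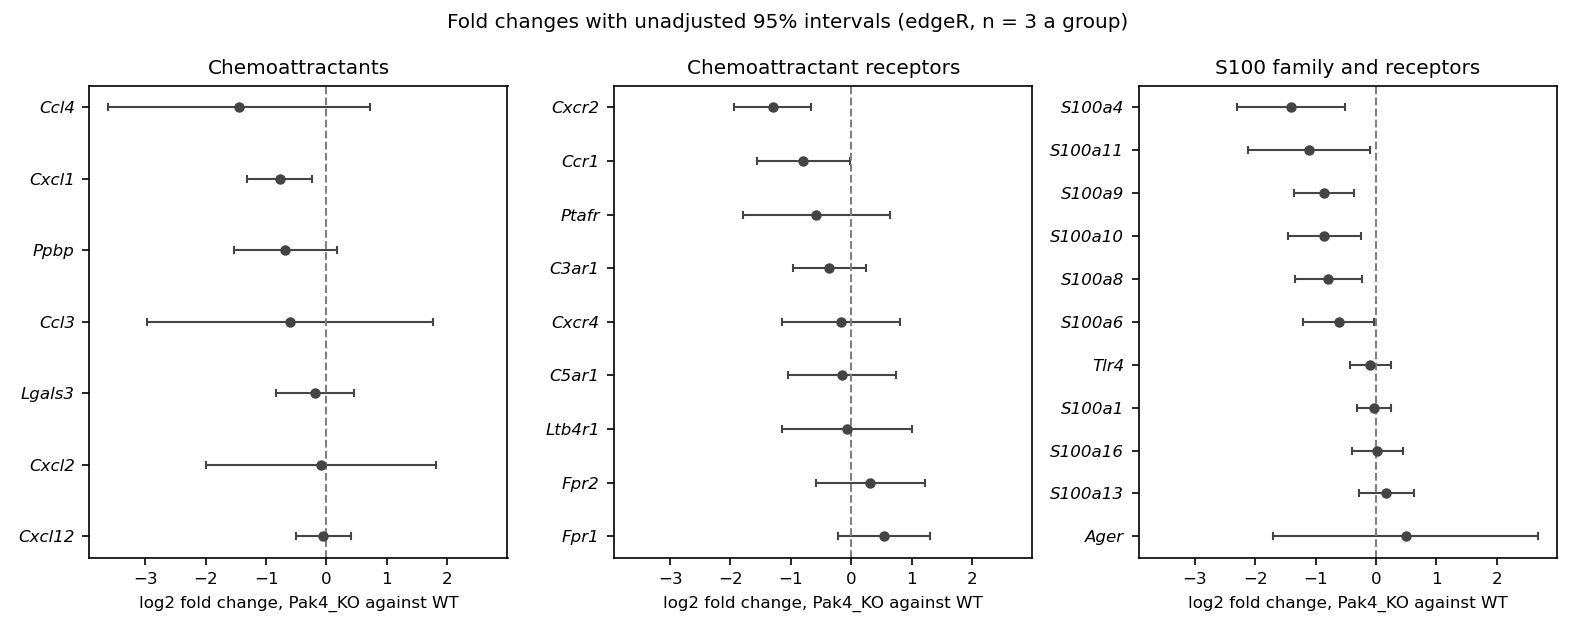
Log2 fold change (x axis, Pak4_KO against WT) with its unadjusted 95% interval for the tested chemoattractants, chemoattractant receptors, and S100 genes with their receptors, edgeR with 3 libraries per group. Cxcl1 (-0.78) is the only chemoattractant whose interval excludes 0, and 6 genes of the S100 panel, S100a8 and S100a9 among them, have intervals below 0.

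Acute phase genes gave the only edgeR call among all of these lists. Saa3, an inducible serum amyloid A protein, stood at 24.4 ± 7.07 CPM in WT and rose 3.53-fold to 86.1 ± 27.4 CPM in Pak4_KO (SD, n = 3 in each group, log2 fold change 1.82, SE 0.29, edgeR adjusted p = 0.0439). That call held in 1 of the 6 fits without 1 library, that without Pak4_KO replicate 3 (adjusted p = 0.0306), and the adjusted p was 0.0569 to 0.210 in the other 5. With all libraries the call was also lost with limma-voom (adjusted p = 0.0535) and at a minimum of 10 reads in every library (0.0503). DESeq2 called 1 acute phase gene as higher, Saa3, and 1 as lower. Of the 10 acute phase genes 8 were negative, with a median of -0.20.

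Markers of other cell types are given beside the neutrophil markers, and their part in the results was not tested. None of these lists held a gene called by edgeR or DESeq2. Of 8 monocyte markers 7 were tested and 6 were negative, with a median log2 fold change of -0.92. Without WT replicate 1 the median was -0.45, over 8 genes that then passed the filter. The summed TPM of the list was 29.0 to 73.7 in WT and 39.0 to 43.4 in Pak4_KO. F13a1, coagulation factor XIII A of monocytes, stood at 20.7, 15.0 and 4.67 CPM in WT and at 4.03, 7.30 and 5.96 CPM in Pak4_KO (log2 fold change -1.22, SE 0.48, edgeR adjusted p = 0.539). Ccr2, the chemokine receptor of inflammatory monocytes, stood at 18.4, 15.2 and 5.98 CPM in WT and at 6.09, 7.56 and 7.18 CPM in Pak4_KO (-0.92, SE 0.36, adjusted p = 0.540). Of the 6 fits without 1 library, Ccr2 was called in that without WT replicate 3 (-1.27, adjusted p = 0.0398), and it stood at -0.61 without WT replicate 1 (adjusted p = 0.945). For F13a1 and Ccr2, WT replicate 3 was as low as the Pak4_KO libraries.

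All 12 Kupffer cell markers were negative with a median of -0.21, and their summed TPM overlapped at 413 to 517 in WT and 356 to 474 in Pak4_KO. Cd5l, a secreted macrophage protein, differed by -0.39 on the log2 scale (SE 0.16, edgeR adjusted p = 0.556) and Vsig4, a complement receptor, one of -0.37 (SE 0.18, adjusted p = 0.664). Of 9 T and NK cell markers 6 were tested and 5 were negative, with a median of -0.48 and a summed TPM of 4.61 to 9.52 in WT and 4.28 to 4.61 in Pak4_KO. Cd4 stood at -1.77 (SE 0.47, edgeR adjusted p = 0.265) and Cd3g at -1.20 (SE 0.43, adjusted p = 0.480), both on at most 60 reads per library. Cd79b, a B cell receptor component, differed by 0.17 on the log2 scale (SE 0.44, edgeR adjusted p = 0.968). Of the 6 eosinophil, basophil and mast cell genes 0 had enough reads to be tested. Epx, Mcpt8 and Ms4a2 had 0 reads in all 6 libraries. Prg2 had 2 reads, in WT replicate 3, and Cpa3 had 3, in Pak4_KO replicate 3. Siglecf had 10, 6 and 6 reads in WT and 5, 0 and 0 in Pak4_KO. The summed TPM of the 6 genes was at most 0.164.

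Blood content was followed through red cell and platelet transcripts. The erythroid markers had 3 of 5 tested genes negative with a median of -0.05, and a summed TPM of 401 to 884 in WT and 517 to 729 in Pak4_KO, lowest in WT replicate 3. Alas2, the heme synthesis enzyme of red cells, differed by -0.24 on the log2 scale (SE 0.21, edgeR adjusted p = 0.849) and Hbb-bs, a β-globin, one of -0.12 (SE 0.30, adjusted p = 0.969). Globin transcripts in WT replicate 1, the library with the most neutrophil marker RNA, lay at the middle of the range, with Hbb-bs at 103 CPM against 63.2 to 152 CPM over all libraries. The 3 tested platelet markers were negative with a median of -0.26, Ppbp standing at -0.68 and Itga2b at -0.26 (SE 0.28, edgeR adjusted p = 0.896). Unlike the globins, the platelet list had its highest summed TPM in WT replicate 1, at 6.90 against 3.50 to 5.95 in the other libraries. Hepatocyte markers had a median of -0.08. Their summed TPM was 31537 to 40650.3 in WT, lowest in WT replicate 1, and 41023 to 45631 in Pak4_KO with no overlap. Single genes of the list were not called, with Hnf4a at -0.29 (SE 0.18, adjusted p = 0.756) and Alb at 0.31 (SE 0.20, edgeR adjusted p = 0.783), whose Pak4_KO libraries all lay above the WT libraries.

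**Figure D5:**
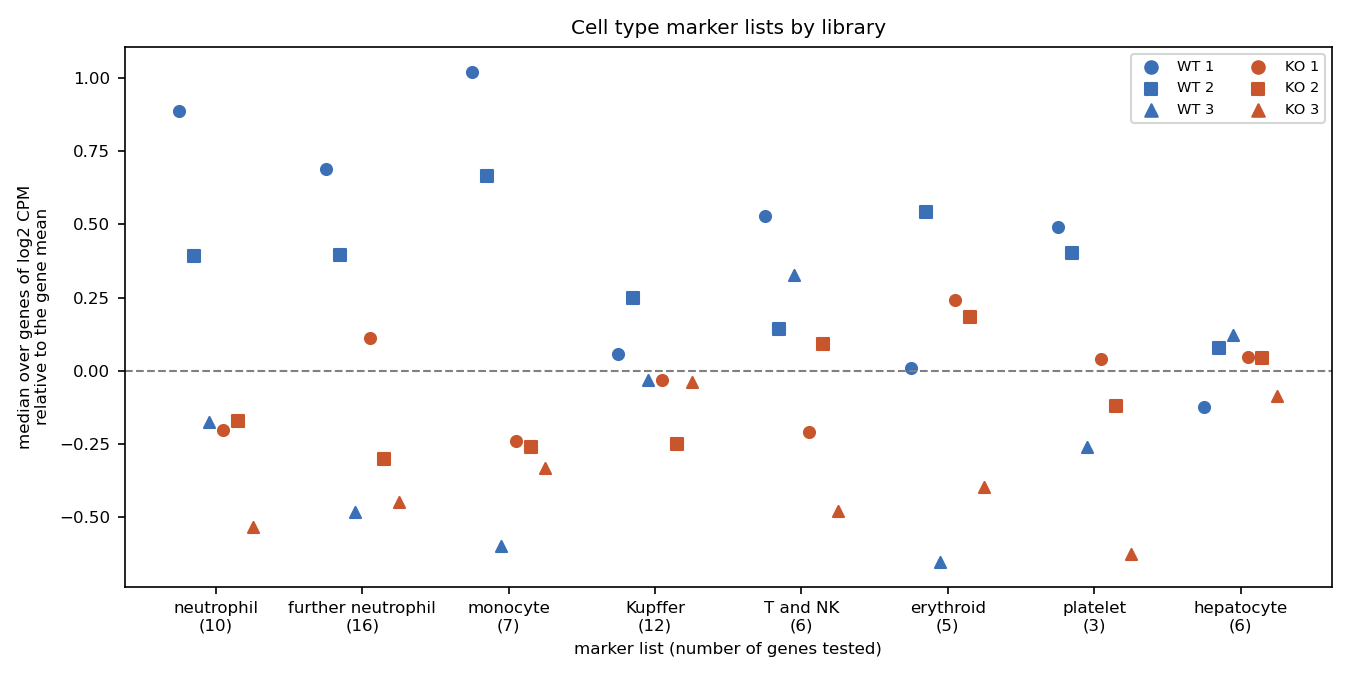
Median over the tested genes of each marker list of log2 CPM relative to the gene's mean (y axis), by library (points, colour for group and shape for replicate). WT replicates 1 and 2 are high for the neutrophil (0.89 and 0.39) and monocyte lists (1.02 and 0.66), and WT replicate 3 is low for both (-0.17 and -0.60), while the hepatocyte list stays between -0.12 and 0.12.

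The 5 genes outside the set closest to the mean profile of the 10 over the 6 libraries, by the root mean squared difference of their centred log2 CPM, were Lmnb1, a nuclear lamin (0.0992), Piwil2, a PIWI protein (0.101), Lsp1, an actin-binding protein of leukocytes (0.127), Itga4, the integrin α4 of leukocytes (0.132), and Snx20, a sorting nexin (0.136). All 5 had overlapping groups, log2 fold changes of -0.82 to -0.48 and edgeR adjusted p of 0.561 to 0.791. Itga4 stood at 15.6, 8.88 and 5.78 CPM in WT and at 6.21, 5.61 and 5.38 CPM in Pak4_KO. The likeness is not particular to them, since 90 genes outside the set came as close as the nearest of the 10 itself, S100a9 (0.220). As close as the farthest of the 10, Il1b (0.566), came 9627 of the tested genes outside the set.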

How the data were processed

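Whole liver was kept in RNAlater, RNA was taken out with Trizol, and libraries were made with the TruSeq Stranded mRNA kit, per the labels' protocols. According to the submitters' processing notes the tools were StringTie 2.1.3b, HISAT2 2.1.0, Bowtie2 2.3.4.1, FastQC 0.11.7 and bcl2fastq 2.20.0, with build mm10. Annotation release and strand setting: not given in the sources used here. Unnormalized read counts per gene were deposited, beside FPKM (not used) and TPM, per the file headers. In all 6 libraries more genes had 2 reads than 1, and whether both mates of a pair were counted was not tested.

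The quasi-likelihood test of edgeR 4.0.16 (R 4.3.3; filterByExpr, TMM, two-sided) was run on the counts of 16197 genes in 6 libraries, with Benjamini-Hochberg adjustment over all of them and calls under 0.05. SE is the absolute log2 fold change over the square root of F. Whether libraries came from separate animals is not labelled, and p-values then reflect only how much these libraries differ, which may be technical. The procedure was tested on simulated data. Alternatives were other scalings and filters, DESeq2 1.42.0, limma 3.58.1 (voom, or trend on log2 TPM), a block for the replicate number, and leaving out each library. Members and lists were chosen with earlier results of these data known. From each list, up to 4 called genes or else the 2 of smallest p were named, and the 5 genes nearest to the mean profile, predicted genes and pseudogenes left out. The marker symbol Tf was not matched. 1 marker is not reported here. Positions and promoters are from RefSeq GRCm38.p6, 1-based. Libraries of 1 group differed beyond sampling noise (chi-square per gene 64.2 to 129.6).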

Additional observations from a re-analysis of the deposited data

How the results depend on the processing

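Over 16 alternatives the median log2 fold change of the 10 markers stayed negative and moved by less than the spread between libraries. That spread, the pooled SD of the library medians, was 0.40, a wide margin beside the median itself. The alternatives also reuse the same libraries and are not independent. The median was -0.72 in the reported fit, -0.43 with log2(TPM + 1), and -0.51 (without WT replicate 1) to -0.95 (without WT replicate 3) with 1 library left out. The DESeq2 Wald test called 2 of the 10 and 334 genes in all, against 0 and 76 in the reported fit. Requiring at least 10 reads in every library gave 44 called genes. Leaving out 1 library gave 37 to 81 called genes and 0 to 1 called markers, the 1 being Csf3r without WT replicate 3. The count of markers lower at an unadjusted p under 0.05, 5 as reported, was 3 without WT replicate 1 or without Pak4_KO replicate 3, 6 with the replicate block and 7 without WT replicate 3. The count without overlap, 4 as reported, was 4 to 6 with 1 library left out, 6 being without WT replicate 3. With fewer libraries non-overlap is easier for every gene. Its share among all tested genes was 6.06% as reported and 9.65% to 13% with 1 library left out, 13% being without WT replicate 3. The sign of Il1b turned with limma-voom (0.058), log2(TPM + 1) (0.017), log2(TPM + 0.1) (0.062) and without WT replicate 1 (0.27), that of Clec4d without WT replicate 1 (0.11), and that of Trem1 without WT replicate 3 (-0.30) or Pak4_KO replicate 1 (-0.16). With 1 library left out, Il1b ranged from -0.71 to 0.27, Clec4d from -0.94 to 0.11 and Trem1 from -0.30 to 0.41. With the replicate block, 73 genes and 0 markers were called, and the median was -0.73. The same-numbered libraries had correlations of 0.067, -0.20 and 0.15 between their deviations from the group means. Those with different numbers had -0.24 to 0.19. With 3 libraries in each group these correlations cannot decide whether the numbers mark pairs. Without WT replicate 1 the median of the interleukin 1 list went from -0.16 to 0.13, and that of the NADPH oxidase list from -0.25 to -0.084. Trem1 (17 to 53 reads) and Ly6g (6 to 16) are limited by depth. So are Stfa2l1 (0 to 17) and S100a11 (7 to 21), both counted above as without overlap.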
